A study of Mus musculus with 6 samples.

Results

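The genes of the Notch pathway were examined in the ureter explants treated with LiCl. Of 39 listed genes for receptors, ligands, processing enzymes, nuclear factors, modulators and targets, the 38 with at least 10 counts in at least 3 of the 6 samples were kept and all 38 were tested. In the whole table, 18328 of 56748 gene identifiers passed the same rule. The gene that was left out, *Hes5*, showed 2, 3 and 3 reads in control replicates 1 to 3, and 7, 6 and 7 reads in the LiCl replicates. The lowest gene that was kept, *Dlk2*, ranged from 22 to 42 reads per control and from 25 to 61 reads per LiCl sample. Ureters had been taken from wildtype NMRI mouse embryos at E12.5 and grown for 18 h in medium with 15 mM LiCl, a salt that blocks the kinase GSK3B and thereby activates canonical WNT signaling, or with water (control). Each group comprised 3 samples, and both groups shared strain, genotype, stage and culture. The explant holds epithelium, mesenchyme, vessels and nerves, so that the values are averages over all its cells. In such bulk samples, fewer cells of a type and less RNA per cell cannot be told apart.

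NOTCH proteins are cell surface receptors that are activated by DLL and JAG ligands on a neighbouring cell. Ligand binding allows ADAM proteases and then the gamma-secretase complex to cut the receptor. The released intracellular domain joins the DNA-binding factor RBPJ and a MAML coactivator to switch on target genes, among them several HES and HEY repressors. In developing organs the pathway sorts neighbouring cells into different fates, and in blood vessels it acts between endothelial cells and the smooth muscle cells and pericytes that surround them.

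The largest change of a single gene, that of *Heyl*, lay at the end of this cascade. The repressor genes *Hes1*, *Hes6*, *Hey1*, *Hey2* and *Heyl*, the 5 tested *Hes* and *Hey* genes among the 38, had a lower expression after LiCl (they fell by 20.3% to 63.7%). *Hes6* is among them by the list, although its protein is known to oppose HES1. The listed target gene *Nrarp* did not pass (log2 fold change 0.03), and *Hes5*, left out by the count rule, had all LiCl samples above all controls. *Hes7*, which was tested outside this list, did not pass, and none of the ligands passed the test. The modulator genes *Numbl* and *Dtx1* fell, with log2 fold changes of -0.88 and -0.66. *Notch1* and *Notch2* fell and *Notch3* rose. Of the 8 genes for gamma-secretase subunits and the nuclear complex, 6 rose, by 15.8% to 40.0%. *Psen2* of this set fell by 28.7% and *Maml3* did not pass. Of these calls, those of *Notch1*, *Notch3*, *Aph1a* and *Psenen* were lost without single libraries. With the genes for glycosylation and the ADAM proteases included, 7 of 14 genes rose and 2 fell. Across all 38 genes, 9 rose and 11 fell at an adjusted p under 0.05, and 18 did not pass. These are 23.7% and 28.9% of the genes, beside 21.1% higher and 22.4% lower among all 18188 genes tested, so that the pathway as a whole changed about as often as the transcriptome. The median log2 fold change was -0.05 for the 38 genes and -0.01 for all genes. With a log2 fold change beyond 1 or -1 in addition, 0 of the 38 genes were higher and 1, *Heyl*, was lower, beside 2.74% and 4.59% of all genes. DESeq2 and an unadjusted p under 0.05 also gave 0 higher genes with that fold. All LiCl samples lay above all controls for 10 genes and below all controls for 11, which compares with 26.4% and 27.8% of all genes.

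**Figure D1:**
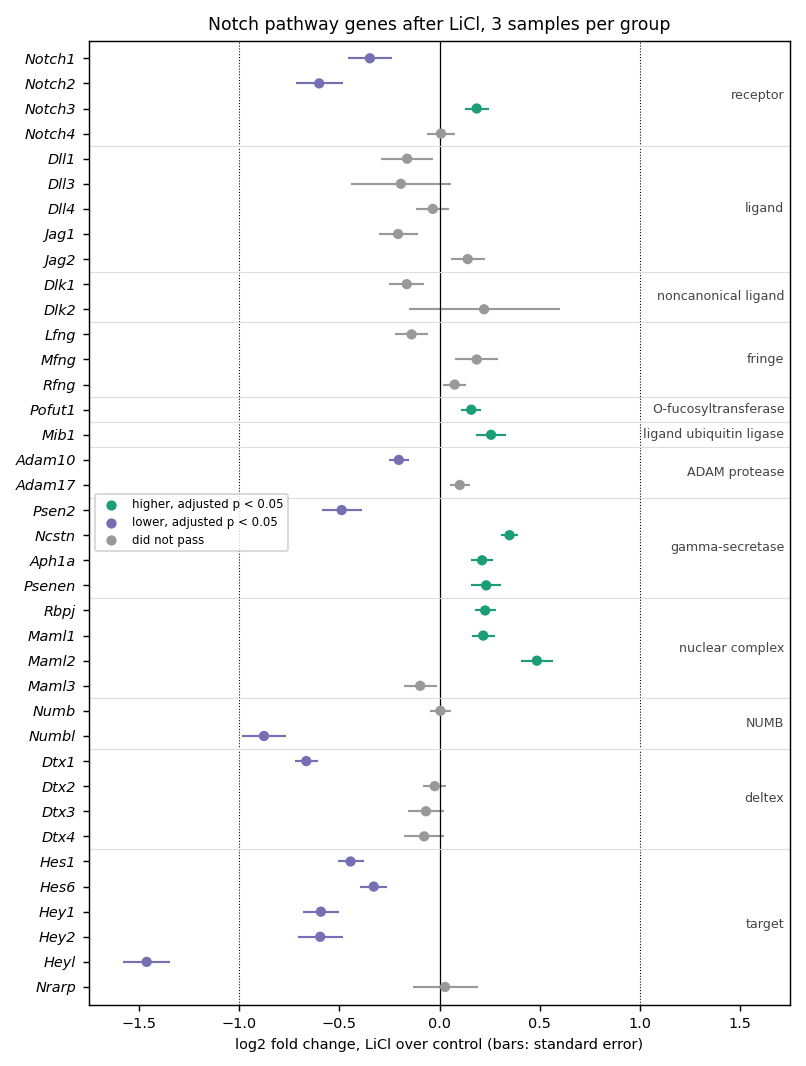
Log2 fold change of LiCl over control (horizontal axis) for the 38 Notch pathway genes, ordered by role. Points are estimates of edgeR from 3 samples per group, bars are standard errors, colours mark the 9 genes that rose and the 11 that fell, and dotted lines mark log2 fold changes of -1 and 1. The 5 *Hes* and *Hey* genes shown lie left of 0 and *Heyl* is beyond -1, while *Nrarp* lies at 0.03. The 5 canonical ligand genes, which did not pass the test, lie between -0.21 and 0.14.

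Total counts per sample ranged from 28473436 to 31266945, and the depths of the groups overlapped. As a check of the treatment, all 5 WNT target genes of a control list rose, among them *Axin2* with a log2 fold change of 0.92 and *Tnfrsf19* with 2.16. Markers of the ureteric mesenchyme summed to 1754 to 1971 CPM in the controls and 1284 to 1315 CPM after LiCl, and those of the ureteric epithelium to 1011 to 1287 CPM and 780 to 820 CPM, so that both tissues were present in every sample. Here CPM are read counts normalised for sequencing depth with the TMM method. The libraries of LiCl replicates 1 and 3 stood apart by skeletal muscle transcripts. The summed level of 9 muscle genes was 31.7, 5.05 and 67.1 CPM in LiCl replicates 1 to 3, against 2.19 to 4.57 CPM in the controls, and all 6 tested genes of this list rose (3 to 6 without single replicates, with 3 without control 1, control 3 or LiCl 3). *Pax7* was at 0 in all 3 controls, *Myog* in control 1 and *Myf5* in LiCl 2. When LiCl replicate 2 alone was compared with the controls, 4 Notch pathway genes rose and 8 fell, among them *Hes1*, *Hes6*, *Hey1*, *Hey2* and *Heyl*. The labels do not say whether the samples of a group came from separate cultures or litters, so the p-values measure only the spread between these samples.

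The 250 bases upstream of annotated transcription starts were taken from RefSeq (GRCm38.p6) for genes of the target list, each written from 5′ to 3′ on the strand of the gene. Shown are a gene that fell with an RBPJ motif, a gene that fell without a match to the motifs searched and the gene closest to 0. *Hey2* lies on the minus strand of chromosome 10 (promoter at chr10:30842784-30843033), *Hes6* on the minus strand of chromosome 1 (chr1:91414039-91414288, the upstream of 2 starts) and *Nrarp* on the plus strand of chromosome 2 (chr2:25180508-25180757). Capitals mark matches to the core motif of RBPJ (TGGGAA, here on the reverse strand) in *Hey2* and to an E-box (CACGTG) in *Nrarp*. The E-box is a site of the kind bound by basic helix-loop-helix factors. Only this form of it was searched, and other forms in the sequences are not marked.
Hey2: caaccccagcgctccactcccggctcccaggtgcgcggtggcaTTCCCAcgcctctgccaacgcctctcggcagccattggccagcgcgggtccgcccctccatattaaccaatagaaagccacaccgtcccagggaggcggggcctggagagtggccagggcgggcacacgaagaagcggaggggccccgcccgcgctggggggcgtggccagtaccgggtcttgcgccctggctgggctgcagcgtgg
Hes6: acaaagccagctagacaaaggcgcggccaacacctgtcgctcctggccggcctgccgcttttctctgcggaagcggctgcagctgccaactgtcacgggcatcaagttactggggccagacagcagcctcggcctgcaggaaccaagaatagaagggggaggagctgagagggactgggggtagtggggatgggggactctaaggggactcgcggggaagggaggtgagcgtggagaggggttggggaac
Nrarp: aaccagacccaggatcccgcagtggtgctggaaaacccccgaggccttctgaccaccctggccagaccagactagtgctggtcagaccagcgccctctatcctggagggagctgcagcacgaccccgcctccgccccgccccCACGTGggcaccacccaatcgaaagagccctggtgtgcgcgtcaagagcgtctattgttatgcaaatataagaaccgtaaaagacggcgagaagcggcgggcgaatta
The *Hey2* match lies 207 to 202 bases before the start and the *Nrarp* E-box 108 to 103 bases before it. Promoters were found for 32 of the 39 genes. On both strands and at any start of a gene, TGGGAA occurred in 9 of these 32 genes (28.1%), and in 21.6% of all 32851 promoters. CACGTG occurred in 4 of the 32 genes and 6.02% of all promoters. CTTTGA, the core motif of TCF/LEF factors, occurred in 3 of the 32 genes and 13.8% of all promoters. The listed genes were counted over all their starts and the background per promoter, so these shares are not directly comparable. *Hes1*, *Hey1* and *Heyl* had no entry. The promoter of *Hes5*, not shown, held 2 matches to TGGGAA, and all its LiCl samples lay above all controls at 2 to 7 counts. Among the other genes with TGGGAA, *Hey2* and *Psen2* fell, and *Maml2*, *Psenen* and *Rbpj* rose. *Dtx2*, *Lfng* and *Maml3* did not pass the test. These matches are letters in a window, and no binding was measured.

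Among the receptor genes, *Notch1* and *Notch2* fell and *Notch3* rose. Per length, in the FPKM deposited by the authors, *Notch3* was the most abundant receptor gene with a mean of 33.6 FPKM in the controls, followed by *Notch2* (20.5 FPKM), *Notch1* (9.17 FPKM) and *Notch4* (7.23 FPKM). *Notch2* had 261, 184 and 226 CPM in the controls and 132, 159 and 151 CPM after LiCl. All LiCl samples lay below all controls, and the control samples differed more among themselves than the LiCl samples. The log2 fold change was -0.60 (SE 0.12, adjusted p = 0.00299, edgeR), that is, expression fell by 34.0%. *Notch1*, the best studied receptor and one that acts in many tissues, had 145, 113 and 138 CPM in the controls and 87.7, 110 and 113 CPM after LiCl. The groups just did not overlap, since control 2 with 113.38 CPM and LiCl 3 with 113.19 CPM nearly touched. *Notch1* fell by 0.35 on the log2 scale (SE 0.11, adjusted p = 0.0309), a call that was lost without control 1 (adjusted p = 0.101), control 3 (0.101) or LiCl 1 (0.0802). The *Notch1* call was also lost in edgeR with a replicate block (adjusted p = 0.0634) and in all limma fits on FPKM (0.0706 to 0.150).

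*Notch3*, a receptor known for its role in the mural cells of vessels, had 285, 255 and 284 CPM in the controls and 296, 329 and 312 CPM after LiCl. All LiCl samples were higher than all controls by a small margin. The log2 fold change was 0.19 (SE 0.06, adjusted p = 0.0304), and the call was lost without control 2 (0.0737), LiCl 2 (0.0914) or LiCl 3 (0.0713). It was also lost in edgeR with unscaled library sizes (adjusted p = 0.0502) or a replicate block (0.0750), and in limma on log2(FPKM + 1) without the filter (0.0585). *Notch4*, which is mainly known from endothelial cells, had 56.2, 56.2 and 64.4 CPM in the controls and 59.0, 56.1 and 62.5 CPM after LiCl. The groups overlapped, with a log2 fold change of 0.01 (SE 0.07, adjusted p = 0.942). The summed FPKM of the 4 receptor genes was 70.4 ± 6.40 (SD, n = 3) in the controls and 67.0 ± 4.06 after LiCl. Within this sum, *Notch2* made up 28.9% ± 2.41 in the controls and 20.4% ± 0.735 after LiCl, and *Notch3* 47.8% ± 1.82 and 57.7% ± 1.18. *Notch1* made up 13.0% and 10.9%, and *Notch4* 10.3% and 11.0%. The shares of *Notch1*, *Notch2* and *Notch3* did not overlap between the groups. In a two-sided exact permutation test each reached p = 0.1, the smallest value that 3 against 3 samples can give, or 0.225 after adjustment over the 18 shares computed.

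**Figure D2:**
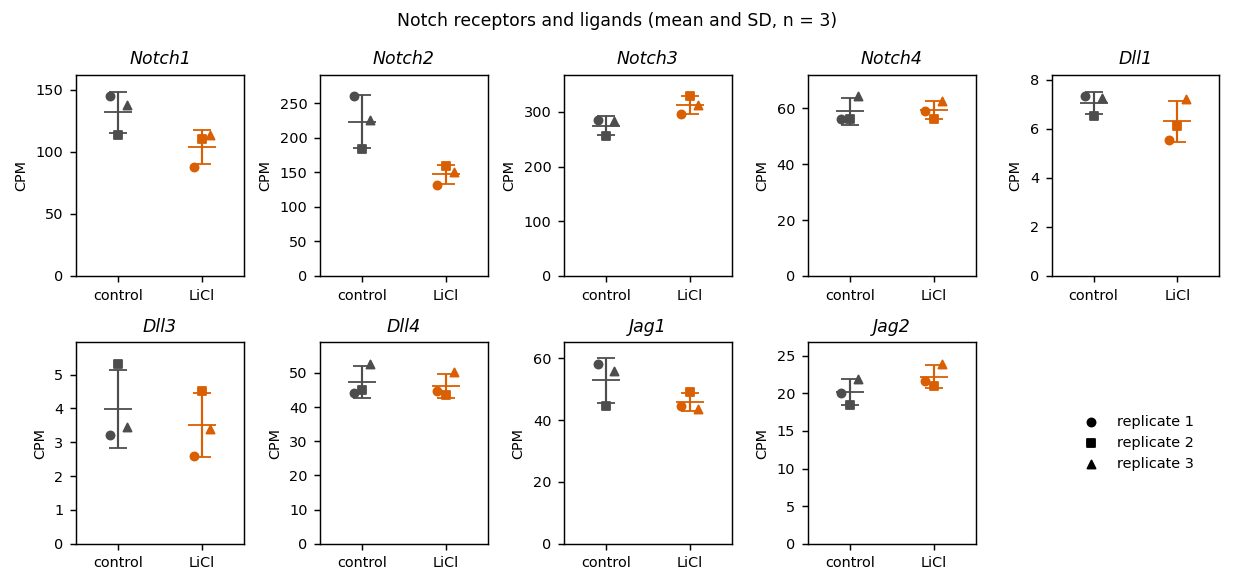
Expression of the 4 receptor and 5 ligand genes in CPM (vertical axes, from 0) in each control and LiCl sample, with the mean and SD of 3 samples and a symbol for each replicate number. *Notch2* lies between 184 and 261 CPM in the controls and between 132 and 159 CPM after LiCl, whereas the groups overlap for all 5 ligand genes.

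**Figure D3:**
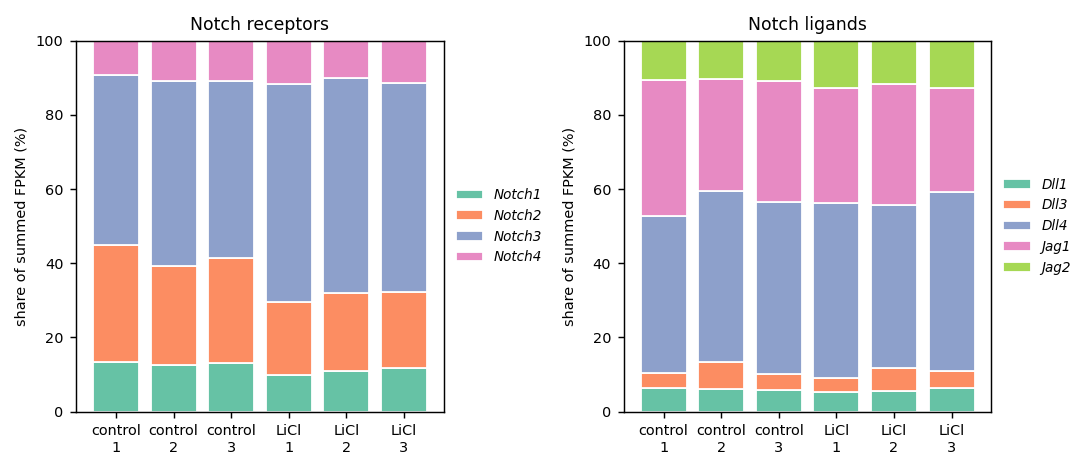
Share of each gene in the summed FPKM of the receptor genes (left) and ligand genes (right), in percent, for each of the 6 samples. The mean share of *Notch3* was 47.8% in the controls and 57.7% after LiCl, and that of *Notch2* 28.9% and 20.4%, while that of *Dll4* was 44.9% and 46.5%.

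None of the ligand genes passed the test. Of the 5 canonical ligand genes, 0 rose and 0 fell with edgeR, with DESeq2 and at an unadjusted p under 0.05, and the groups overlapped for each of them. *Dll4*, the ligand of sprouting endothelium, was the most abundant per length (12.1 and 12.0 FPKM). It had 44.0, 45.0 and 52.6 CPM in the controls and 44.6, 43.6 and 50.2 CPM after LiCl, with a log2 fold change of -0.03 (SE 0.08). Replicate 3 was the highest in both groups, as it was for *Notch4* and for the summed endothelial markers, which lay between 540 and 683 CPM in the controls and between 497 and 612 CPM after LiCl. *Jag1*, a ligand that signals to smooth muscle precursors and within epithelia, had 58.2, 44.5 and 55.8 CPM in the controls and 44.4, 49.1 and 43.7 CPM after LiCl. Control 2 was as low as the LiCl samples. The log2 fold change of *Jag1* was -0.21 (SE 0.10, adjusted p = 0.116), and without control 2 it was -0.31 (adjusted p = 0.00717).

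*Jag2*, the paralogue of *Jag1*, had 20.1, 18.4 and 21.9 CPM in the controls and 21.7, 21.0 and 23.9 CPM after LiCl (log2 fold change 0.14, SE 0.08). *Dll1*, a ligand used in lateral inhibition, had 7.34, 6.54 and 7.28 CPM in the controls and 5.57, 6.12 and 7.24 CPM after LiCl (log2 fold change -0.16, SE 0.13). The spread of both genes within a group was as wide as the shift between the groups. *Dll3*, a divergent family member that does not activate receptors in trans, had 3.20, 5.31 and 3.46 CPM in the controls and 2.61, 4.51 and 3.41 CPM after LiCl (log2 fold change -0.19, SE 0.25). The summed FPKM of the 5 ligand genes was 27.0 ± 1.92 in the controls and 25.8 ± 1.19 after LiCl. Of this sum, *Dll4* made up 44.9% and 46.5%, *Jag1* 33.2% and 30.5% and *Jag2* 10.6% and 12.4%. The share of *Jag2* did not overlap between the groups (exact permutation p = 0.1, the smallest possible, and 0.225 after adjustment over 18 shares), unlike its CPM and unlike the shares of the other 4 ligand genes. The non-canonical ligand gene *Dlk1*, whose protein lacks the domain that activates the receptor, had 119, 110 and 128 CPM in the controls and 101, 97.0 and 121 CPM after LiCl. The groups overlapped through LiCl 3, and the log2 fold change of -0.16 (SE 0.09, adjusted p = 0.157) became -0.26 (adjusted p = 0.0289) without that library. *Dlk2* was expressed at 0.72 to 1.96 CPM with overlapping groups.

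Of the genes that modify receptors and ligands, the fringe genes *Lfng*, *Mfng* and *Rfng*, which encode glycosyltransferases that tune the choice of ligand, did not pass the test. Their log2 fold changes were -0.14, 0.19 and 0.08, and 0 of the 3 passed with edgeR, with DESeq2 or at an unadjusted p under 0.05. The share of *Lfng* in the summed FPKM of the fringe genes was 31.2% in the controls and 27.6% after LiCl, with no overlap between the groups (exact permutation p = 0.1, the smallest possible). *Pofut1*, which attaches the O-fucose that fringe proteins extend, rose by 11.6% (log2 fold change 0.16, SE 0.05, adjusted p = 0.0282). *Mib1*, the ubiquitin ligase that makes ligands competent to signal, rose by 19.5% (0.26, SE 0.07, adjusted p = 0.0191). Both calls were sensitive to single libraries. That of *Pofut1* was lost without control 3 (adjusted p = 0.105), LiCl 1 (0.0794) or LiCl 3 (0.0657). That of *Mib1* was lost without control 2 (0.0534), control 3 (0.0659) or LiCl 2 (0.0589).

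Of the 10 genes that cut the receptor or carry its signal in the nucleus, 6 rose and 2 fell after LiCl. Among all genes tested, 21.1% were higher and 22.4% lower. Whether these genes differed from those shares was not tested. Of the 2 ADAM genes, *Adam10*, which encodes the main protease of ligand-induced cleavage and had 58.8 FPKM in the controls, fell by 0.20 on the log2 scale (SE 0.05, adjusted p = 0.00934), which means that it decreased by 13.1%. *Adam17* had a log2 fold change of 0.10 (SE 0.05, adjusted p = 0.132), although all its LiCl samples (96.2 to 102 CPM) lay above all controls (87.7 to 95.2 CPM). Of the 4 gamma-secretase genes, 3 rose and 1 fell. *Ncstn*, which encodes the substrate receptor nicastrin, rose by 27.4%, from 153 ± 3.18 CPM to 195 ± 3.67 CPM (SD, n = 3; log2 fold change 0.35, SE 0.04, adjusted p = 0.000226). The scaffold gene *Aph1a* rose by 15.8% (0.21, adjusted p = 0.0124) and *Psenen*, the gene of the smallest subunit, by 17.5% (0.23, adjusted p = 0.0299). *Psen2*, a catalytic subunit gene with only 2.83 FPKM in the controls, fell from 12.4 ± 0.715 CPM to 8.83 ± 0.762 CPM (-0.49, adjusted p = 0.00372). The call of *Aph1a* was lost without LiCl 3 (adjusted p = 0.0521). That of *Psenen* was lost without control 1 (0.0637), control 3 (0.1), LiCl 1 (0.0544), LiCl 2 (0.0829) or LiCl 3 (0.0521).

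Of the 4 genes of the nuclear complex, 3 rose and 0 fell, beside 21.1% higher and 22.4% lower among all genes tested. DESeq2 and an unadjusted p under 0.05 gave the same counts for the 4 genes. *Rbpj* rose by 17.1%, from 97.8 ± 2.96 CPM to 114 ± 5.62 CPM (SD, n = 3; log2 fold change 0.23, adjusted p = 0.00665). *Maml1* rose by 16.3% (0.22, adjusted p = 0.0138) and *Maml2* by 40.0%, from 33.1 ± 3.57 CPM to 46.3 ± 2.38 CPM (0.49, adjusted p = 0.00125). For these 3 genes all LiCl samples lay above all controls. *Maml3* had 60.8 to 74.8 CPM in the controls and 62.0 to 69.6 CPM after LiCl, with a log2 fold change of -0.10 (SE 0.08).

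Among the modulators of the receptor, *Numbl* and *Dtx1* fell. *Numbl* and *Numb* encode adaptor proteins that act in receptor endocytosis and antagonize NOTCH. *Numbl* had 65.6, 58.0 and 57.9 CPM in the controls and 39.0, 31.8 and 28.1 CPM after LiCl. The groups were far apart, and the log2 fold change was -0.88 (SE 0.11, adjusted p = 0.000249), so that the level fell by 45.5%. It was -1.01 without LiCl 1. *Numb*, in contrast, had 56.2 to 59.4 CPM in the controls and 55.8 to 59.7 CPM after LiCl (log2 fold change 0.00, SE 0.05, adjusted p = 0.951). The difference between both paralogues was not tested.

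Deltex proteins are ubiquitin ligases that bind the intracellular part of NOTCH, and *Dtx1* is itself a known target of the pathway. *Dtx1* had 28.3, 28.8 and 27.5 CPM in the controls and 17.6, 18.2 and 17.6 CPM after LiCl. The samples of each group were nearly identical, and the log2 fold change was -0.66 (SE 0.06, adjusted p = 3.36e-05), so that the level fell by 36.9%. The other 3 deltex genes did not pass the test. *Dtx2*, *Dtx3* and *Dtx4* had log2 fold changes of -0.02, -0.07 and -0.08 with overlapping groups. *Dtx3* was the most abundant of the 38 genes per length, with 84.0 FPKM in the controls and 81.1 FPKM after LiCl.

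**Figure D4:**
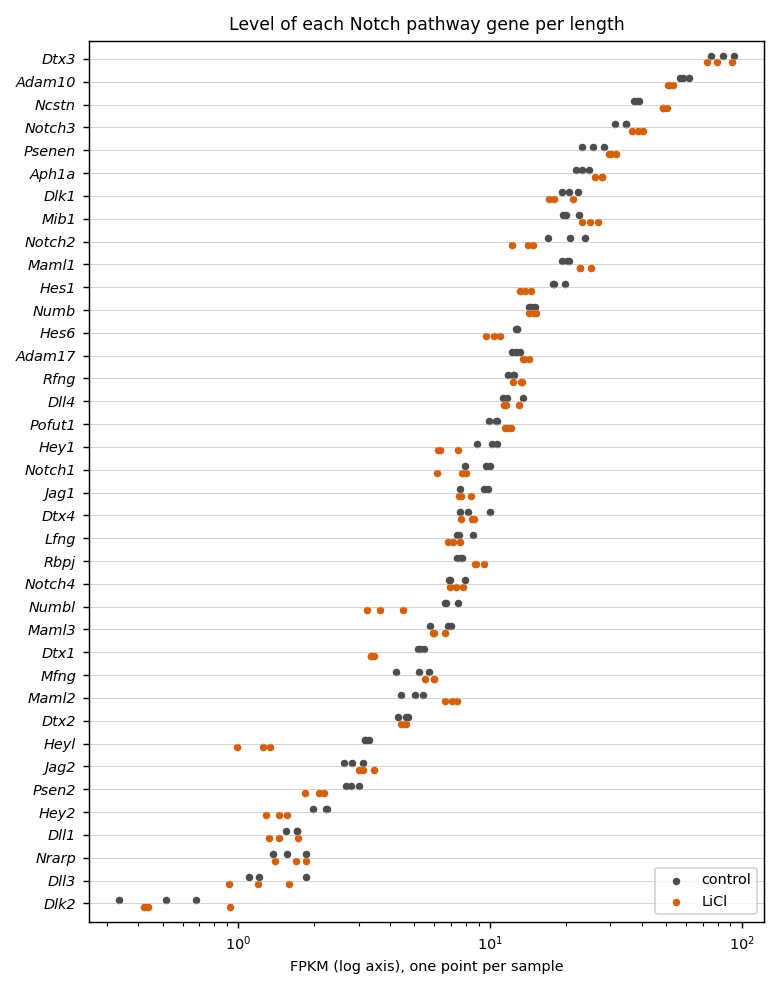
Level of each of the 38 genes per length in FPKM (horizontal log axis), a point for each sample, ordered by the mean of the controls. *Dtx3* is highest at 84.0 FPKM and *Dlk2* lowest at 0.51 FPKM in the controls, and the *Heyl* samples of the groups are the farthest apart.

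The *Hes* and *Hey* genes encode transcriptional repressors, and several of them, such as *Hes1* and *Heyl*, are common readouts of NOTCH activity. *Hes6* is included here by the target list and is not read as such. *Heyl*, a target gene of NOTCH3 in vascular smooth muscle, had 16.6, 16.4 and 17.0 CPM in the controls and 5.02, 6.84 and 6.35 CPM after LiCl. Every LiCl sample was below the lowest control by more than the whole spread of either group. The log2 fold change was -1.46 (SE 0.12, adjusted p = 1.87e-05), so that the level fell by 63.7%, and without single libraries it ranged from -1.55 to -1.34. *Hey1*, a target in endothelium and other tissues, had 29.5, 33.4 and 35.2 CPM in the controls and 24.2, 20.3 and 20.6 CPM after LiCl. *Hey2*, with the promoter shown above and known from the heart and arteries, had 10.5, 10.2 and 9.17 CPM in the controls and 6.66, 5.94 and 7.17 CPM after LiCl. The groups did not overlap for either gene, and both fell by about the same factor. The log2 fold change was -0.59 (SE 0.09, adjusted p = 0.000775) for *Hey1* and -0.60 (SE 0.11, adjusted p = 0.00234) for *Hey2*.

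*Hes1*, the most abundant target gene with 18.5 FPKM in the controls and a brake on differentiation in many progenitor cells, had 37.2, 40.7 and 36.6 CPM in the controls and 28.1, 26.7 and 29.4 CPM after LiCl. The groups were well separated, and the log2 fold change was -0.44 (SE 0.06, adjusted p = 0.000597). *Hes6*, whose protein is known to oppose HES1 rather than to act like it, had 23.2, 23.3 and 23.4 CPM in the controls and 18.6, 17.4 and 19.7 CPM after LiCl. It fell by 0.33 on the log2 scale (SE 0.07, adjusted p = 0.004), the smallest decrease among these 5 genes. The median of the 5 log2 fold changes was -0.59, beside -0.01 over all genes. For all 5 genes the groups did not overlap and the decrease passed the test without any single library.

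Not all target genes followed. *Nrarp*, which encodes a feedback inhibitor induced by NOTCH, had 3.62, 4.80 and 4.08 CPM in the controls and 4.38, 3.62 and 4.75 CPM after LiCl. The groups overlapped throughout, with a log2 fold change of 0.03 (SE 0.16, adjusted p = 0.906) at a low level of 1.60 FPKM in the controls. For *Hes5*, the 8 counts in all controls and 20 counts in all LiCl samples are too few for the filter. All LiCl samples lay above all controls. Without the filter, edgeR gave a log2 fold change of 1.36 (SE 0.72, adjusted p = 0.188) and DESeq2 an adjusted p of 0.290, whereas limma on log2(FPKM + 1) gave a difference of 0.14 on that scale with an adjusted p of 0.0108, so that the call depended on the test. *Hes7*, the segmentation clock gene and no member of the list, had 0.52, 0.81 and 0.72 CPM in the controls and 0.39, 0.39 and 0.64 CPM after LiCl. Its groups overlapped, with a log2 fold change of -0.53 (SE 0.33, adjusted p = 0.220), and it is named after its values were seen.

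**Figure D5:**
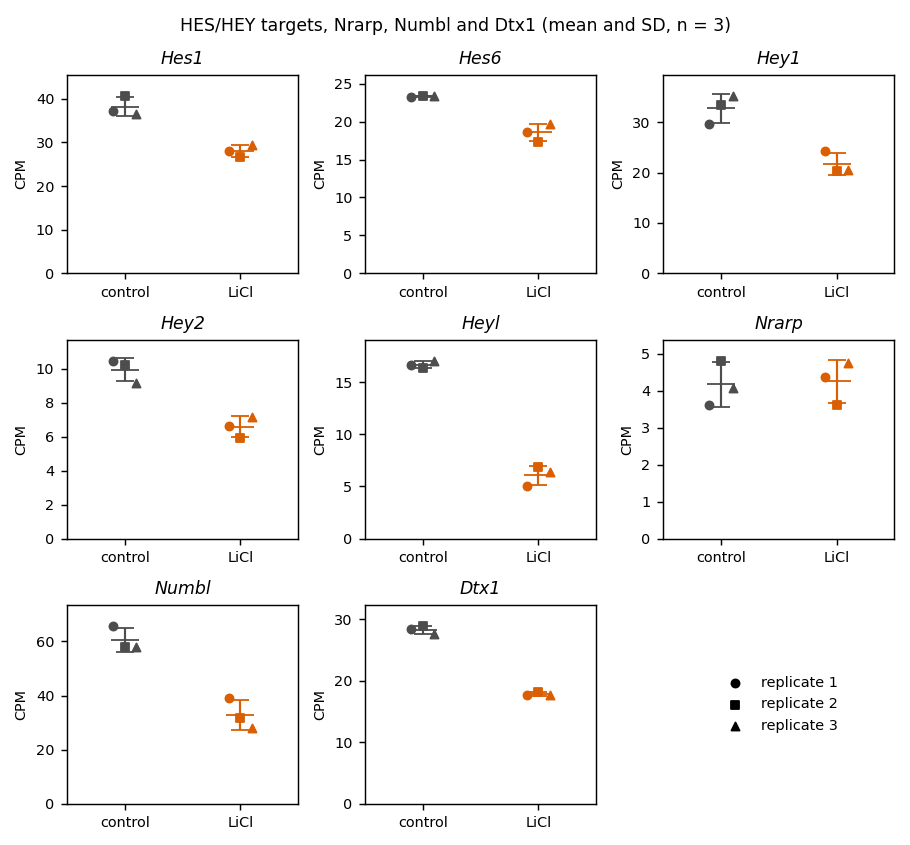
Expression of *Hes1*, *Hes6*, *Hey1*, *Hey2*, *Heyl*, *Nrarp*, *Numbl* and *Dtx1* in CPM (vertical axes, from 0) in each sample, with the mean and SD of 3 samples and a symbol for each replicate number. For *Heyl* the controls lie at 16.4 to 17.0 CPM and the LiCl samples at 5.02 to 6.84 CPM, and among the genes shown the groups overlap for *Nrarp*.

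The shares of the target genes in their summed level differed between the groups for some of them only. The summed FPKM of the 6 listed *Hes* and *Hey* genes, with *Hes5* and without *Hes7*, was 46.6 ± 1.71 in the controls and 33.5 ± 1.64 after LiCl (SD, n = 3). *Hes1* made up 39.7% and 41.1% of it, *Hes6* 27.4% and 30.7%, *Hey1* 21.2% and 19.9%, and *Hey2* 4.60% and 4.28%. The share of *Heyl* was 6.92% in the controls and 3.56% after LiCl. The share of *Hes5* was 0.137% and 0.503%, at 2 to 7 counts per sample. The shares of *Heyl*, *Hes6* and *Hes5* did not overlap between the groups (exact permutation p = 0.1 each, the smallest possible, and 0.225 after adjustment over 18 shares).

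Markers of the cells in which *Heyl*, *Hey1*, *Notch3* and *Dll4* are commonly found were set beside these values. Of 8 markers of perivascular and smooth muscle cells, 0 rose and 5 fell with edgeR, and 0 rose and 4 fell with DESeq2. *Pdgfrb*, a receptor of pericytes and mesenchyme, fell with a log2 fold change of -0.96, *Myh11*, a smooth muscle myosin, with -1.11, and *Rgs5*, a pericyte gene, with -0.72. *Abcc9* (-0.65) and *Acta2* (-0.56) fell too, whereas *Tagln* (0.21), *Cspg4* (0.11) and *Kcnj8* (-0.18) did not pass. The list summed to 473 to 513 CPM in the controls and 279 to 331 CPM after LiCl. Its most abundant members were *Rgs5* and *Pdgfrb*, with means of 241 and 159 CPM in the controls and 146 and 81.7 CPM after LiCl. *Notch3* rose in the same samples. Of 8 endothelial markers 0 rose and 1 fell with edgeR, and 0 rose and 2 fell with DESeq2. The gene that fell with edgeR was the angiopoietin receptor gene *Tek*, with a log2 fold change of -1.15. The summed levels of the endothelial list overlapped between the groups. Of 8 epithelial markers 1 rose and 5 fell, of 7 mesenchymal markers 0 rose and 4 fell, and of 8 neural crest and neural markers 0 rose and 1 fell, with summed levels of 194 to 233 CPM and 149 to 205 CPM. Of 7 tested nephron markers 3 rose and 3 fell (118 to 122 CPM and 114 to 128 CPM), and of 5 macrophage markers 1 rose and 2 fell (55.7 to 88.4 CPM and 56.4 to 72.4 CPM). These counts stand beside 21.1% higher and 22.4% lower among all 18188 genes tested. Whether any marker list differed from these shares was not tested. Without single replicates, the number that fell ranged from 3 (without control 3 or LiCl 1) to 5 for the perivascular list and from 1 to 3 (without LiCl 3) for the endothelial list. The counts for the neural, nephron and macrophage lists moved by up to 2 genes. None of these markers was at 0 in all samples. Their part in the changes of the Notch pathway genes was not tested.

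Of 33 other genes of the pathway, such as further ligand ligases, proteases, corepressors and modulators, 31 were tested, of which 10 rose, 2 fell and 19 did not pass, with a median log2 fold change of 0.01. These counts are 32.3% and 6.45% of the tested genes, beside 21.1% and 22.4% of all genes, and without control 3 or LiCl 3 they were 6 and 1, and without LiCl 2 they were 7 and 1. *Hes2* and *Hes3* were below the filter. The largest change among those that passed was that of *Ccn3*, which encodes a matricellular protein that binds NOTCH1. It had 2.82, 3.48 and 3.92 CPM in the controls and 11.2, 5.69 and 9.33 CPM after LiCl, with a log2 fold change of 1.36 (SE 0.24, adjusted p = 0.00171). LiCl replicates 1 and 3, the libraries with skeletal muscle transcripts, were its highest samples, and with LiCl 2 alone against the controls its adjusted p was 0.0506. *Furin*, the protease gene for receptor maturation, fell by 0.39 on the log2 scale (adjusted p = 0.000186), from 141 to 151 CPM in the controls to 110 to 114 CPM after LiCl. *Snw1*, a cofactor of RBPJ complexes, rose by 0.33 (adjusted p = 0.000544). The corepressor gene *Tle4* had a log2 fold change of 0.30 (adjusted p = 0.0185) and the ligand ligase gene *Neurl1b* of 0.27 (adjusted p = 0.0287), and both calls were lost without single libraries. That of *Tle4* was lost without control 2 (adjusted p = 0.0555) or control 3 (0.0513), and that of *Neurl1b* without any library but control 2 (0.0522 to 0.0985).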

How the data were processed

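The authors deposited raw counts per Ensembl gene and FPKM per sample. Per the submitters' processing notes, reads were handled with fastp 0.23, STAR 2.7, featureCounts 2.0 and DESeq2 1.40 on GRCm39, whereas the methods of the study name HISAT2 as the aligner. The annotation release, the strand setting of the counting and the making of the FPKM were not given in the sources used here, so overlapping antisense genes and close paralogues are uncertain. Symbols came from GENCODE vM21 (52073 of 56748 identifiers). That table and the RefSeq promoters belong to GRCm38, so positions are given for promoters only.

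The quasi-likelihood test of edgeR 4.0.16 (R 4.3.3) was applied to the counts after filterByExpr and TMM scaling, with adjustment over the 18188 genes by Benjamini and Hochberg. CPM were computed from the TMM-scaled counts. Rose and fell mean an adjusted p under 0.05, and the stricter call of the study adds a log2 fold change beyond 1 or -1. FPKM served for levels between genes and for shares (two-sided exact permutation tests, SciPy 1.17.1). No sample was dropped. The scripts were tested on simulated counts with 200 changed genes. No replicate was a copy of another (chi-square of paired counts per degree of freedom 5.93 to 14.5).

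The members and lists were chosen with earlier results of these data known. Every member is named. Values per sample are given for receptors, ligands, targets and members called with an absolute log2 fold change of at least 0.5, and of the other pathway genes the 5 with the largest change among those with an adjusted p under 0.05 are named. Values per sample of *Adam17*, *Maml3*, *Numb* and further members, and the marker genes named, were picked with those values in view.

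The test was repeated with size factors of the RLE type, with unscaled library sizes, with DESeq2 1.42.0, without the filter, with a minimum of 10 counts in each sample, with a replicate block, without each replicate in turn, with glmTreat, and with limma 3.58.1 on log2(FPKM + 1) and log2(FPKM + 0.1), both for genes averaging 0.5 FPKM or more, the former also for all genes. A gene length offset and LiCl 2 alone against the controls were added after the data were seen.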

Additional observations from a re-analysis of the deposited data

How the results depend on the processing

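With RLE size factors, with DESeq2, without the filter, with a minimum of 10 counts in each sample and with a gene length offset, 9 Notch pathway genes rose and 11 fell, and the genes were the same for RLE, DESeq2 and the length offset. With library size only, 6 rose and 11 fell. Leaving out single replicates gave 5 to 8 genes that rose, the fewest without LiCl 3, and 1 to 2 genes lower with the fold change minimum, the second being *Numbl* without LiCl 1. The LiCl replicate 2 alone, assumed to vary like the controls, gave 4 that rose. With limma on log2(FPKM + 1), 0 genes were lower with the fold change minimum, with or without the filter, since the pseudocount shrinks the change of *Heyl*. Same-numbered samples did not deviate together (r of -0.01, -0.18 and 0.13), and pairs with different numbers spanned -0.19 to 0.18. With 3 samples per group, these values cannot decide whether the numbers pair samples. The replicate block gave 6 genes that rose and 10 that fell.

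Of 20 genes that rose or fell, 14 passed in the same direction under every setting other than glmTreat, which tests for a larger change, and LiCl 2 alone, and 11 also did so with LiCl 2 alone. With glmTreat and LiCl 2 alone set aside, the genes that lost the call in some setting were *Notch1*, *Notch3*, *Pofut1*, *Mib1*, *Aph1a* and *Psenen*. Of 646 values of single genes under the alternatives, 39 lost the call, 2 gained it and 0 changed direction among called values. Values under 10 CPM, such as those of *Nrarp*, *Dll3* and *Dlk2*, have the widest errors.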
